A study of Mus musculus with 14 samples.

Results

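The genes described here were 10 members of the transforming growth factor beta (TGF-beta) pathway, found by symbol in a deposited expression table of 46904 genes. They were the ligand genes Tgfb1, Tgfb2 and Tgfb3, the activin A subunit gene Inhba, the receptor genes Tgfbr1 and Tgfbr2, the signal transducer Smad3, the inhibitory Smad7, the induced matrix gene Tgfbi, and Lrg1, which encodes a secreted modulator of the pathway. All 10 were listed in all 14 libraries and all 10 passed the filter on low values, which kept 46102 genes above 0 in at least 2 libraries.

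The libraries came from brain hemispheres of mice with (Cort+/+) or without (Cort-/-) the gene of the neuropeptide cortistatin, and asked how its loss changes the transcriptome after ischemic stroke. Every mouse had undergone transient occlusion of the left middle cerebral artery (MCAO) with a filament for 20 min followed by reperfusion, the procedure used in the study for young males of 12 weeks, and tissue was taken 48 h later. The ischemic hemisphere (MCAO) was compared with the contralateral hemisphere (CL), which is the tissue that the labels call untreated. There were 3 Cort+/+ CL, 3 Cort+/+ MCAO, 3 Cort-/- CL and 5 Cort-/- MCAO libraries, described as independent biological replicates. The study's methods give 3 CL and 5 MCAO replicates. The Cort+/+ MCAO libraries carried the replicate numbers 2, 3 and 4, and any other replicate of that group was not analysed here. By the study's methods, replicates that did not group clearly could be dropped from a variable comparison, and whether this touched the Cort+/+ MCAO group is not given in the sources used here. Which CL and MCAO libraries came from the same brain is not given there either, so hemispheres were compared without pairing. The knockout was constitutive, on a C57BL/6J background, so the gene was missing from all cells throughout life. No library came from an unoperated mouse, so side of the brain and ischemia cannot be told apart. Whole hemispheres were used, and in such bulk tissue fewer cells of a type and less RNA per cell cannot be told apart.

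TGF-beta ligands are secreted as latent complexes and, once released, bring together a type II and a type I receptor (products of Tgfbr2 and Tgfbr1), which phosphorylate Smad2 and Smad3. The phosphorylated Smads enter the nucleus with Smad4 and switch on genes of the extracellular matrix and of feedback control, Smad7 among them. In the brain the pathway is known for keeping microglia in their homeostatic state and for its part in glial scarring and in vessel maturation.

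The deposited values are RPKM, reads per kilobase of gene length and per unit of sequencing depth, so levels of different genes can be set side by side. Read totals recovered from them ran from 25989685 to 43032309 per library. The library sizes behind the RPKM were 0.954 to 0.995 times these totals in CL and 0.992 to 1.041 times in MCAO libraries. The values were thus not scaled by these totals alone. Cort itself had 64 to 139 reads in the 6 Cort+/+ libraries and 0 to 4 reads in the 8 Cort-/- libraries. Neuronal markers summed to between 1492 and 2072 RPKM over all libraries and none of the 5 was at 0, so the tissue carried the markers of brain.

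After MCAO, 4 of the 10 genes rose in the response averaged over both genotypes with equal weights, and these were a ligand (Tgfb1), both receptors (Tgfbr1 and Tgfbr2) and a target gene (Tgfbi). Their mean changes were 2.06-fold, 1.24-fold, 1.50-fold and 3.09-fold. Tgfb2, Tgfb3, Inhba, Smad3, Smad7 and Lrg1 did not pass the test. The test was limma on log2(RPKM + 0.1) with Benjamini-Hochberg adjustment over all 46102 genes and a threshold of 0.05. It called 3.43% of all genes in this comparison. Most of these genes averaged under 0.5 RPKM, whereas all 10 members averaged more. Of the 17476 genes averaging at least 0.5 RPKM, tested alone, limma called 2180 here, 1290 in Cort-/- and 28 in Cort+/+ mice. In Cort+/+ mice 2026 of them had an unadjusted p under 0.05. All 4 averaged calls were lost when same-numbered libraries of a genotype were treated as blocks (limma adjusted p from 0.130 to 0.152). Limma then called 0 of all genes. That fit compares hemispheres within 5 same-numbered pairs alone and leaves few libraries to estimate the spread. The loss therefore cannot decide whether the calls depend on pairing. The 4 averaged log2 changes were larger in it, at 1.17 for Tgfb1, 0.39 for Tgfbr1, 0.69 for Tgfbr2 and 1.94 for Tgfbi. Within Cort-/- mice 2 members were called, Tgfb1 and Tgfbr2, where 1.72% of all genes were. Within Cort+/+ mice limma called 0 members, with 4 at an unadjusted p under 0.05, where 0.0108% of all genes were called and 7.87% had an unadjusted p under 0.05. The median log2 change of the 10 members was 0.22 in Cort+/+ and 0.19 in Cort-/- mice, and that of all genes was 0.0 in both. Every MCAO library lay above every CL library of the same genotype for 2 members in Cort+/+ mice (Tgfb1 and Tgfbr1) and for 4 in Cort-/- mice (these 2, Tgfbr2 and Tgfbi). The same was true of 5.73% and 4.85% of all genes.

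**Figure D1:**
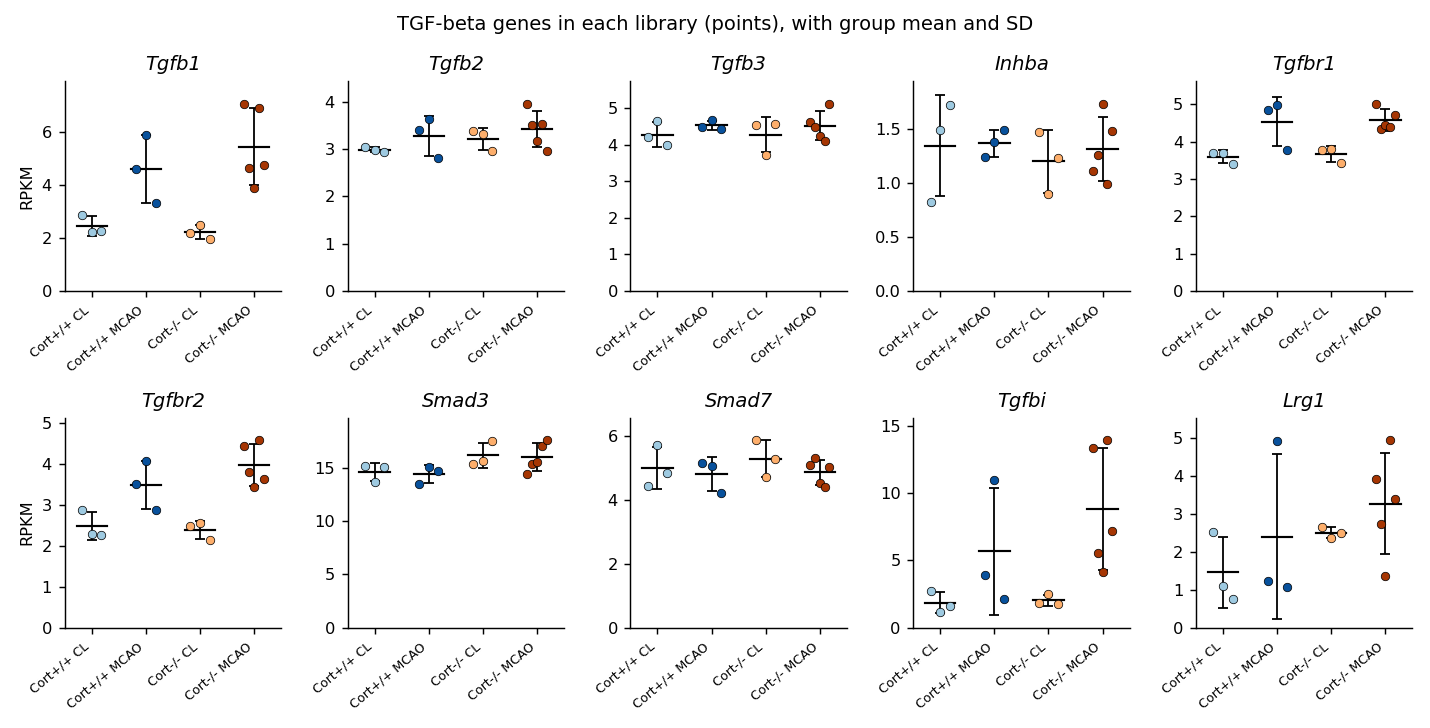
RPKM (vertical axes, starting at 0) of the 10 genes in each of the 14 libraries (points) of the 4 groups, with the group mean (horizontal line) and SD (bar). Within each genotype the hemispheres did not overlap for Tgfb1 and Tgfbr1, those of Tgfbr2 and Tgfbi overlapped in Cort+/+ mice alone, and those of the other 6 genes overlapped in both genotypes.

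Among the ligands, Tgfb1, which encodes the isoform best known from immune and glial cells, was the one that passed the test. It lies on chromosome 7 (25386390 to 25404506, plus strand, GRCm39). Its levels in Cort+/+ mice were 2.88, 2.23 and 2.24 RPKM in the CL libraries and 4.60, 5.88 and 3.31 RPKM in the MCAO libraries. In Cort-/- mice they were 2.20, 2.49 and 1.95 RPKM in CL and 7.07, 4.62, 3.88, 6.91 and 4.74 RPKM in MCAO. In both genotypes the lowest MCAO library lay above the highest CL library. The log2 difference was 1.23 ± 0.21 (SE) in Cort-/- mice (2.35-fold, 95% interval 1.71 to 3.22, limma adjusted p = 0.0166). It was 0.85 ± 0.24 in Cort+/+ mice (1.81-fold, 1.27 to 2.57), which limma did not call (adjusted p = 0.295). The difference between those responses was 0.38 ± 0.32 and was not called either (adjusted p = 1, 95% interval -0.31 to 1.06). The averaged response was 1.04 ± 0.16 (adjusted p = 0.00409) and was called whichever of the 14 libraries was left out. The call in Cort-/- mice was lost without CL replicate 1 (adjusted p = 0.0739) or CL replicate 3 (adjusted p = 0.0798), and with the Cort-/- groups fitted alone (adjusted p = 0.0688).

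Tgfb2 and Tgfb3, the other isoforms, which share the receptors of Tgfb1, did not pass the test. Tgfb2 ranged over the 6 CL libraries from 2.93 to 3.39 RPKM and over the 8 MCAO libraries from 2.81 to 3.96 RPKM. Tgfb3 ranged from 3.72 to 4.64 RPKM in CL and from 4.09 to 5.13 RPKM in MCAO. The hemispheres overlapped for both genes in both genotypes. Their averaged log2 differences were 0.10 ± 0.07 for Tgfb2 and 0.08 ± 0.06 for Tgfb3, with 95% intervals of -0.06 to 0.27 and -0.06 to 0.22. Inhba, whose product dimerizes into activin A and signals through activin receptors to the same Smads, was the lowest of the ligands in the mean of every group. It lay between 0.83 and 1.73 RPKM in CL and between 0.99 and 1.74 RPKM in MCAO libraries. Its averaged difference of 0.10 ± 0.17 had a 95% interval from -0.27 to 0.47.

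The TGF-beta ligand transcripts were also set against each other. Tgfb1 held 25.2% ± 2.92 (SD, n = 3) of the summed RPKM of Tgfb1, Tgfb2 and Tgfb3 in Cort+/+ CL and 36.6% ± 5.03 (n = 3) in Cort+/+ MCAO libraries. The shares in Cort-/- mice were 22.8% ± 2.95 (n = 3) and 40.1% ± 5.83 (n = 5). In CL libraries Tgfb3 was the most abundant of these isoforms, at 39.1% to 48.2%. In MCAO libraries Tgfb1 was the most abundant in 5 of 8, the exceptions being Cort+/+ replicate 4 and Cort-/- replicates 3 and 5, where Tgfb3 led. An exact two-sided permutation test gave p = 0.0179 for the Tgfb1 share in Cort-/- mice (difference 17.3 percentage points), the smallest p that 3 against 5 libraries allow. The same exact test gave p = 0.1 in Cort+/+ mice (11.4 points), again the smallest possible. Adjusted over the 4 share comparisons these became 0.0714 and 0.2, so neither passed. The genotypes differed by -2.35 points in CL and 3.57 points in MCAO (exact p = 0.4 and 0.446).

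**Figure D2:**
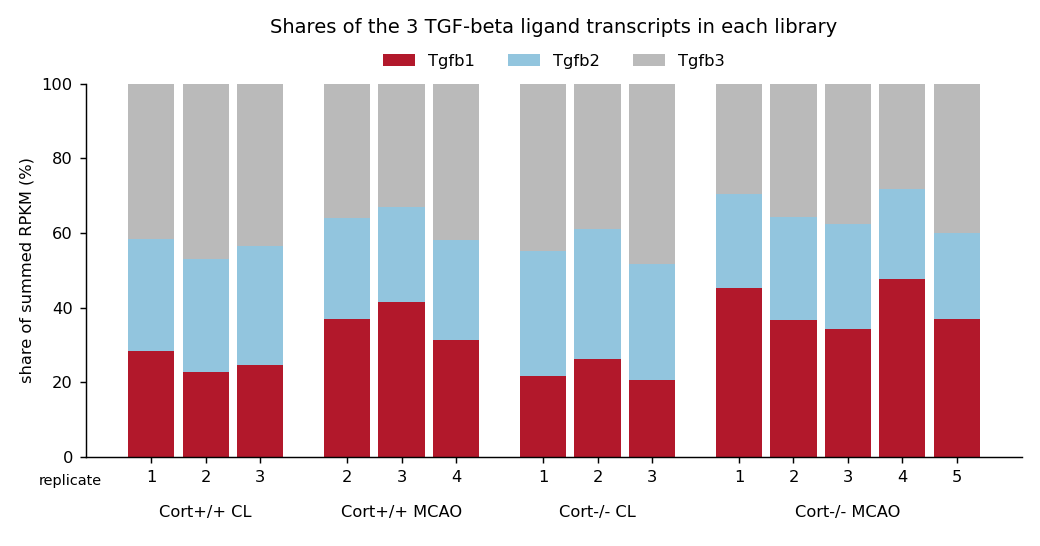
Shares (vertical axis, percent of the summed RPKM) of Tgfb1, Tgfb2 and Tgfb3 in each library, grouped by genotype and hemisphere, with replicate numbers under the bars. The Tgfb1 share lay between 20.6% and 28.4% in the CL and between 31.4% and 47.6% in the MCAO libraries.

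The regions around the starts of Tgfb1 and Tgfb2 are shown because the first gene passed the test in the averaged response and the second did not, although the difference between the genes was not tested. Each sequence runs 5′ to 3′ from 250 bases before to 50 bases after the RefSeq gene start in build GRCm38.p6, which is older than the build of the expression values. Capitals mark the GC box GGGCGG on either strand, a motif that was added after the expression values had been seen.
Tgfb1 (chr7:25686752-25687051, plus strand): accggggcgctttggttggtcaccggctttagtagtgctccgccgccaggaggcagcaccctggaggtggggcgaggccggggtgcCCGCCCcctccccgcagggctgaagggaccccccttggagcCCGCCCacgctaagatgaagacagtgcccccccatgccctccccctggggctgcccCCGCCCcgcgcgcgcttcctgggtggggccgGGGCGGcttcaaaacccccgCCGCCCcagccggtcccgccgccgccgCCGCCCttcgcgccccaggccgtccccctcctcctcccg
Tgfb2 (chr1:186705940-186706239, minus strand): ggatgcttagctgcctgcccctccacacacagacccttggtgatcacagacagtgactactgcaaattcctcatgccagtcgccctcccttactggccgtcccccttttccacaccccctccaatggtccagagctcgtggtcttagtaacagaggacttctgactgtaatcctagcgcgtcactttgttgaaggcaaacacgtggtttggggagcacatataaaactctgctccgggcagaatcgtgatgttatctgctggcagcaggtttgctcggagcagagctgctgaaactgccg
The Tgfb1 window held 6 GC boxes and 77.0% G or C bases, and the Tgfb2 window held 0 GC boxes and 54.3% G or C bases. Of all 32851 windows in the same table, 35.7% held at least 1 GC box and 1.35% held 6 or more, and the median G and C content was 52.7%. Windows were read for 8 of the members (9 windows, since Tgfbr1 has 2), and the boxes were present in those of Tgfb1, Tgfbi, Tgfbr1 and Smad3. Smad7 was not among the members read, so the counts of motifs here do not cover its start. The Smad element GTCTAGAC, the AP-1 motif TGANTCA and the STAT motif TTCNNNGAA, searched on both strands, were in 0 of the 9 windows, against 0.213%, 7.81% and 8.30% of all windows. These letter matches describe the windows and were not tied to the expression changes by any test.

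Both receptors were higher in MCAO than in CL tissue in the averaged response. Tgfbr2, the type II receptor that binds the ligand first, lies on chromosome 9 (115913361 to 116004800, minus strand). It stood at 2.88, 2.29 and 2.26 RPKM in Cort+/+ CL and at 3.51, 4.07 and 2.88 RPKM in Cort+/+ MCAO libraries. In Cort-/- mice it stood at 2.49, 2.55 and 2.14 RPKM in CL and at 4.43, 3.80, 3.43, 4.58 and 3.62 RPKM in MCAO. The hemispheres did not overlap in Cort-/- mice, whereas Cort+/+ MCAO replicate 4 (2.876 RPKM) lay just under Cort+/+ CL replicate 1 (2.885 RPKM). The log2 difference was 0.70 ± 0.13 in Cort-/- mice (adjusted p = 0.0209) and 0.47 ± 0.14 in Cort+/+ mice (adjusted p = 0.351, not called). The responses differed by 0.23 ± 0.19 (adjusted p = 1). The call in Cort-/- mice was lost without CL replicate 1 (adjusted p = 0.0781), CL replicate 3 (adjusted p = 0.101) or MCAO replicate 1 (adjusted p = 0.0543), and with the Cort-/- groups fitted alone (adjusted p = 0.0599). The averaged difference of 0.59 ± 0.10 (adjusted p = 0.00599) was called in all 14 repeats with 1 library left out.

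Tgfbr1, the type I receptor kinase (chromosome 4, 47353134 to 47414931, plus strand), moved less. Its CL levels were 3.70, 3.70 and 3.40 RPKM in Cort+/+ and 3.79, 3.81 and 3.43 RPKM in Cort-/- mice. Its MCAO levels were 4.84, 4.98 and 3.79 RPKM in Cort+/+ and 5.03, 4.34, 4.46, 4.39 and 4.71 RPKM in Cort-/- mice. MCAO lay above CL in every library of both genotypes when compared within the genotype. The log2 differences were 0.32 ± 0.10 in Cort+/+ and 0.31 ± 0.09 in Cort-/- mice (adjusted p = 0.347 and 0.103), and only the averaged value of 0.31 ± 0.07 passed (adjusted p = 0.0185). That call was lost without Cort-/- CL replicate 3 (adjusted p = 0.0539), Cort+/+ CL replicate 3 (0.0536), Cort+/+ MCAO replicate 2 (0.0567) or Cort+/+ MCAO replicate 3 (0.0560). Without Cort+/+ MCAO replicate 4, the lowest MCAO library, limma called Tgfbr1 in Cort+/+ mice (adjusted p = 0.0484) and in Cort-/- mice (0.0325).

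**Figure D3:**
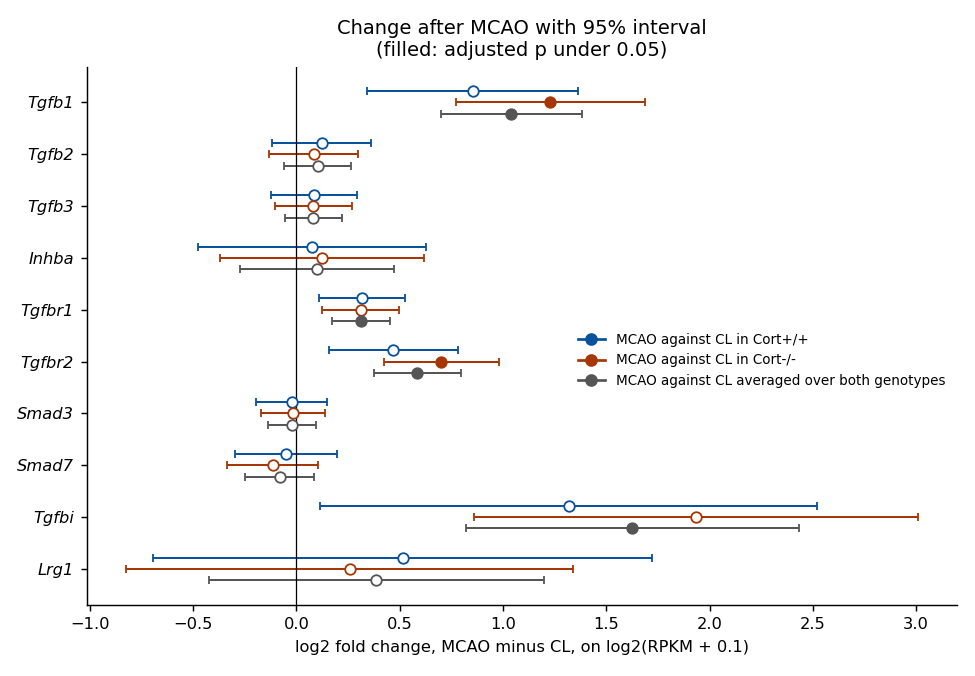
Log2 fold change after MCAO (horizontal axis, MCAO minus CL on log2(RPKM + 0.1)) of the 10 genes with 95% intervals, in each genotype and averaged over both. Filled points have a limma adjusted p under 0.05, and they are Tgfb1 and Tgfbr2 in Cort-/- mice and Tgfb1, Tgfbr1, Tgfbr2 and Tgfbi in the average.

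Neither Smad gene passed the test. Smad3, which carries the signal from the activated receptor to the nucleus, was the most abundant of the 10 genes in every group and overlapped with no other member within a group. It lay between 13.5 and 17.6 RPKM over all 14 libraries. Its averaged log2 difference was -0.02 ± 0.05, with a 95% interval from -0.14 to 0.10. Smad7, which blocks the type I receptor and is itself induced by the pathway, lay between 4.43 and 5.88 RPKM in CL and between 4.22 and 5.31 RPKM in MCAO libraries. Its averaged difference was -0.08 ± 0.08, with a 95% interval from -0.25 to 0.08. Both genes overlapped between hemispheres in both genotypes.

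Tgfbi encodes a secreted matrix protein first found through its induction by TGF-beta, and it showed the largest averaged response of the 10 genes. The gene lies on chromosome 13 (56757336 to 56787375, plus strand). In Cort+/+ mice it stood at 2.73, 1.18 and 1.64 RPKM in CL and at 3.91, 11.01 and 2.09 RPKM in MCAO libraries. In Cort-/- mice it stood at 1.82, 2.52 and 1.74 RPKM in CL and at 13.4, 5.53, 4.17, 13.96 and 7.16 RPKM in MCAO. The hemispheres were separate in Cort-/- mice and overlapped in Cort+/+ mice, where MCAO replicate 4 lay below CL replicate 1. The log2 difference was 1.93 ± 0.50 in Cort-/- mice (3.82-fold, 95% interval 1.81 to 8.05, adjusted p = 0.0758) and 1.32 ± 0.56 in Cort+/+ mice (2.49-fold, 1.08 to 5.74, adjusted p = 0.577). The genotypes' responses differed by 0.62 ± 0.75 (adjusted p = 1). Only the average of 1.63 ± 0.37 passed (adjusted p = 0.0308).

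That average for Tgfbi depended on single libraries. It was called in 7 of the 14 repeats with 1 library left out. It was lost, with an adjusted p from 0.0532 to 0.0776, without Cort-/- CL replicate 1 or 3, Cort-/- MCAO replicate 1, Cort+/+ CL replicate 2 or 3, or Cort+/+ MCAO replicate 2 or 3. The Cort-/- response of Tgfbi was in turn called without Cort-/- MCAO replicate 3 (adjusted p = 0.0393), Cort+/+ MCAO replicate 3 (0.0311) or Cort+/+ MCAO replicate 4 (0.0461).

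Lrg1, a secreted glycoprotein of endothelium and neutrophils that modulates signalling through the co-receptor endoglin, varied from library to library without a call. In Cort+/+ mice it stood at 2.53, 1.09 and 0.74 RPKM in CL and at 1.22, 4.91 and 1.06 RPKM in MCAO libraries. In Cort-/- mice it stood at 2.66, 2.35 and 2.50 RPKM in CL and at 3.90, 2.73, 1.37, 4.93 and 3.37 RPKM in MCAO. The hemispheres overlapped in both genotypes. The averaged difference was 0.39 ± 0.38 (adjusted p = 0.714) and its 95% interval ran from -0.42 to 1.198, the widest of the 10 genes in this comparison.

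The MCAO libraries differed among themselves in a way that several members shared. Tgfbi was highest in Cort-/- replicates 4 and 1 and in Cort+/+ replicate 3 (13.96, 13.36 and 11.01 RPKM). The same 3 libraries held the highest levels of Tgfb1 (6.91, 7.07 and 5.88 RPKM), Tgfbr2 (4.58, 4.43 and 4.07 RPKM) and Lrg1 (4.93, 3.90 and 4.91 RPKM). Tgfb2, which did not pass the test, was also highest in these 3 libraries (3.53, 3.96 and 3.63 RPKM). Cort+/+ replicate 4 was the lowest of the 8 for all of these genes, and also for Tgfbr1 (3.79 RPKM) and Smad7 (4.22 RPKM). Smad7 did not otherwise keep this order. Inhba did not keep it either, and was lowest in Cort-/- replicates 4 and 1 (0.99 and 1.11 RPKM). The summed RPKM of 7 microglial markers was highest in the same 3 libraries, at 200.7, 216.5 and 196.8, and lowest in Cort+/+ replicate 4, at 126.3. The summed RPKM of 6 markers of infiltrating myeloid cells and neutrophils was 37.5, 56.5 and 26.8 in those 3 libraries and 14.2 in Cort+/+ replicate 4.

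**Figure D4:**
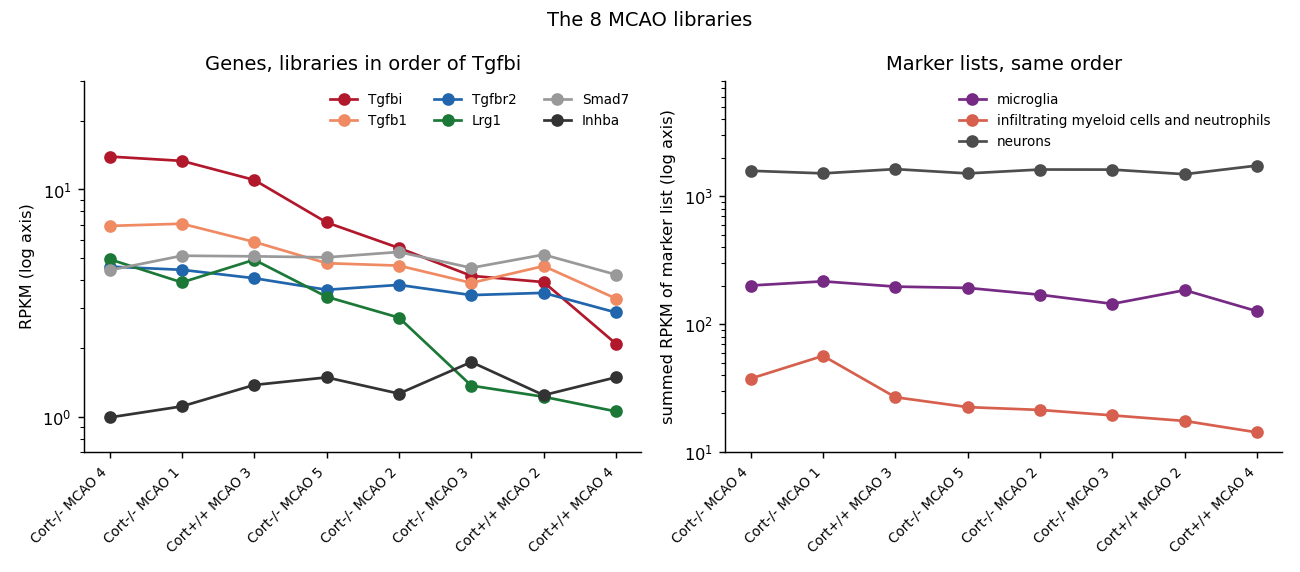
RPKM of 6 of the genes (left) and summed RPKM of 3 marker lists (right), both on log axes, in the 8 MCAO libraries ordered from the highest to the lowest Tgfbi. Tgfb1, Tgfbr2, Lrg1 and the microglial and infiltrating myeloid lists were highest on the left side of each panel, and Smad7, Inhba and the neuronal list did not follow this order.

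The sum of the microglial markers separated the hemispheres, and that of the infiltrating myeloid markers overlapped between them. Microglial markers summed to between 95.2 and 112.1 RPKM over the CL libraries and between 126.3 and 216.5 RPKM over the MCAO libraries. In the averaged response limma called 6 of the 7 markers, all higher in MCAO, and in Cort-/- mice 4 of 7. It called 3.43% and 1.72% of all genes in these comparisons. Of the 17476 genes averaging at least 0.5 RPKM, tested alone, it called 2180 and 1290. Infiltrating myeloid and neutrophil markers summed to between 7.34 and 18.1 RPKM in CL and between 14.2 and 56.5 RPKM in MCAO, with 2 of 6 called in the averaged response. Of these lists no marker was at 0 reads throughout, although Ly6c2 and Plac8 never exceeded 52 and 65 reads. The markers of border macrophages stayed low, at 1.33 to 2.80 RPKM in CL and 1.82 to 5.17 RPKM in MCAO. In the averaged response limma called 0 of these 4, with 2 at an unadjusted p under 0.05, which 14.9% of all genes reached. The part of these cells in the rise of Tgfb1, the receptors and Tgfbi was not tested.

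Likeness over the 14 libraries, as Pearson's r of log2(RPKM + 0.1) among 15063 genes averaging 1 RPKM or more, is given as a description, since these libraries share a split by hemisphere. The genes nearest to Tgfb1 were Lgmn (r = 0.994), Cd63 (0.991) and Ifi30 (0.991). Nearest to Tgfbr2 were Msr1 (0.992), Tgfb1 itself (0.989) and Ctsl (0.987), and nearest to Tgfbr1 were Dock8 (0.972), Renbp (0.970) and Tifab (0.963). Tgfbi ran closest to H2-D1 (0.987), Ms4a6d (0.984) and Arhgap30 (0.982). Lrg1 ran closest to Csrnp1 (0.942), Emilin2 (0.928) and an unnamed gene (0.916). The members that did not pass the test had looser neighbours, with a best r of 0.888 for Tgfb2 (Plk4), 0.900 for Tgfb3 (Ifrd2), 0.915 for Inhba (Ttll5), 0.891 for Smad3 (Ehd3) and 0.929 for Smad7 (Dyrk2).

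The order of the levels was not the same in every group. In Cort+/+ CL libraries the means ran from Smad3 (14.6 RPKM) over Smad7 (4.999), Tgfb3 (4.28), Tgfbr1 (3.60), Tgfb2 (2.99), Tgfbr2 (2.48), Tgfb1 (2.45), Tgfbi (1.85) and Lrg1 (1.45) to Inhba (1.35). From Tgfbr2 downwards neighbours in this order overlapped between libraries, as did Smad7 and Tgfb3. In Cort-/- MCAO libraries Tgfbi (8.84 RPKM) and Tgfb1 (5.44 RPKM) came next after Smad3 (16.0 RPKM), with Tgfbi and Tgfb1 overlapping.

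Between genotypes no member was called in either hemisphere. In CL tissue limma called 0 of 10, with 0 at an unadjusted p under 0.05, where 0.0152% of all genes were called. In MCAO tissue it called 0 of 10, again with 0 at an unadjusted p under 0.05, where 0.0174% of all genes were called. For the difference between genotypes in the response it called 0 of 10, with 0 at an unadjusted p under 0.05, where 0.00217% of all genes were called. The intervals show what this design could resolve. In MCAO tissue the Cort-/- over Cort+/+ ratio of Tgfb1 was 1.18 (95% interval 0.859 to 1.62), that of Tgfbr2 was 1.14 (0.939 to 1.38) and that of Tgfbr1 was 1.02 (0.892 to 1.16). For Tgfbi it was 1.74 (0.825 to 3.66) and for Lrg1 1.58 (0.745 to 3.34), so sizeable differences in these genes were within the interval. Smad3 had the lowest unadjusted p among the members, with a ratio of 1.11 (0.995 to 1.23, limma adjusted p = 1). In CL tissue Smad3 stood at 15.4, 15.6 and 17.5 RPKM in Cort-/- and at 15.1, 13.7 and 15.1 RPKM in Cort+/+ libraries. The ratio there was 1.104 (0.979 to 1.24, limma adjusted p = 1).

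Around these members, 49 other genes of the pathway were examined as a list. In the averaged response limma called 6 of 49, 5 higher and 1 lower, against 3.43% of all genes. Of the 17476 genes averaging at least 0.5 RPKM, tested alone, it called a larger share, 2180 here and 1290 in Cort-/- mice. The counts of this list are therefore not read as an excess. Within Cort-/- mice it called 4 of 49, all higher, against 1.72% of all genes. In Cort+/+ mice it called 0 of 49, against 0.0108%, with 8 at an unadjusted p under 0.05, against 7.87% of all genes. The median log2 change of the 49 was 0.08 in the averaged response, against 0.0001 for all genes. Among 12 target genes, 3 rose in the averaged response. Timp1, an inhibitor of matrix metalloproteinases, rose by 2.61 ± 0.50 on the log2 scale (adjusted p = 0.0116). It went from a range of 0.33 to 2.37 RPKM in CL to 1.64 to 17.7 RPKM in MCAO. Tagln, a smooth muscle actin-binding protein, rose by 1.32 ± 0.13 (adjusted p = 0.00056), from 1.74 to 2.92 RPKM in CL to 3.99 to 7.52 RPKM in MCAO with no overlap. Fn1, which encodes fibronectin, rose by 0.63 ± 0.11 (adjusted p = 0.00702).

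The remaining called genes of the pathway belonged to 2 of the other lists. Of 7 other receptors and co-receptors, the endoglin gene Eng rose by 0.38 ± 0.06 (adjusted p = 0.00647), and Acvr2a, an activin type II receptor, fell by 0.23 on the log2 scale (SE 0.05, adjusted p = 0.0286). Eng is an endothelial gene, and all 6 endothelial markers had a positive averaged difference, 2 of them called, with a summed level of 32.9 to 47.9 RPKM in CL and 43.1 to 59.6 RPKM in MCAO libraries. The part of these cells in the rise of Eng was not tested. Of 6 activin subunits and extracellular inhibitors, Dcn, which encodes the TGF-beta binding proteoglycan decorin, rose by 0.53 ± 0.08 (adjusted p = 0.00283). Dcn also counts among the 5 fibroblast markers, whose sum went from 18.7 to 22.1 RPKM in CL to 22.1 to 32.0 RPKM in MCAO. That sum contains Dcn itself, with means of 7.63 (Cort+/+) and 7.33 RPKM (Cort-/-) in CL and 10.2 and 11.7 RPKM in MCAO. Dcn was the only 1 of the 5 that limma called in the average. The part of those cells was not tested. Of 11 genes for latency and activation of the ligands limma called 0, with 4 at an unadjusted p under 0.05. Of 13 other Smad and intracellular regulator genes it called 0, with 3, where 14.9% of all genes reached that unadjusted p. Among the 17476 genes averaging at least 0.5 RPKM, tested alone, 4738 reached it. For the response within Cort-/- mice the called genes were Tagln (1.42 ± 0.17, adjusted p = 0.00596), Fn1 (0.75 ± 0.14, 0.0231), Dcn (0.67 ± 0.10, 0.00964) and Eng (0.56 ± 0.08, 0.0099). In Cort+/+ mice the lowest p belonged to Tagln (1.22 ± 0.19, adjusted p = 0.0817), Dcn (0.40 ± 0.11, 0.299) and Timp1 (2.54 ± 0.74, 0.324).

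**Figure D5:**
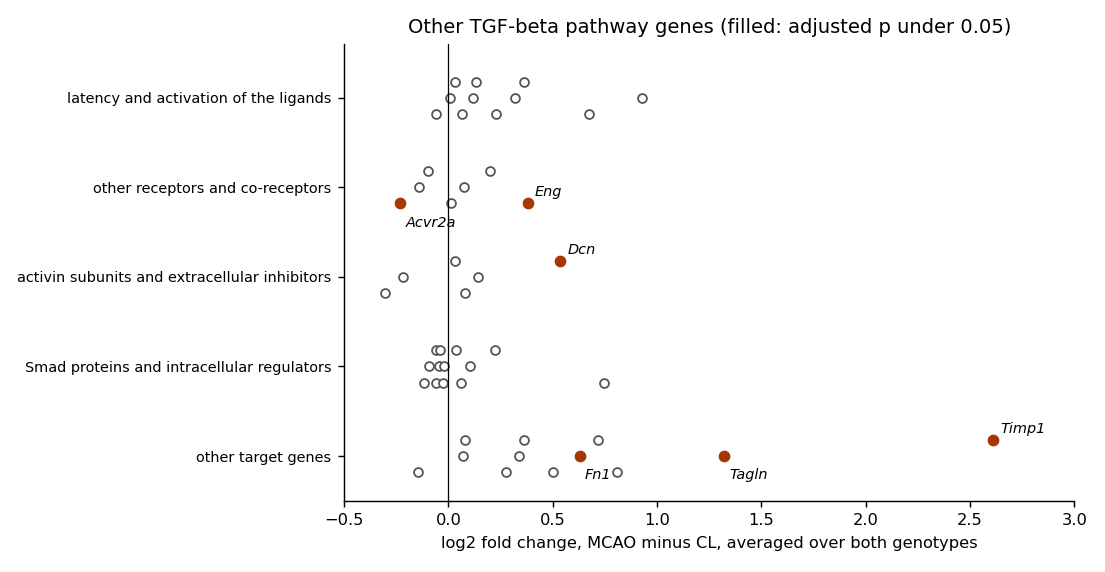
Log2 fold change after MCAO averaged over both genotypes (horizontal axis) for 49 other genes of the pathway in 5 lists. Filled and named points have a limma adjusted p under 0.05, with 3 of 12 target genes among them and none of the 11 latency genes.

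Between genotypes 0 of the 49 were called by limma in CL, in MCAO and for the difference in the response. An unadjusted p under 0.05 was reached by 2, 3 and 2 of them, against 3.91%, 3.82% and 3.31% of all genes. The genes below are described as those of lowest p. In CL tissue the lowest p belonged to endothelial receptors. Eng lay at 6.44 to 6.67 RPKM in Cort+/+ and 4.28 to 5.89 RPKM in Cort-/- mice, and Acvrl1, the type I receptor ALK1, at 3.56 to 3.94 and 2.75 to 3.07 RPKM. The limma adjusted p-values of these genes were 0.856 and 1, and Ski, a corepressor of Smads, came next (adjusted p = 1). The sum of 6 endothelial markers was also lower in Cort-/- CL libraries, at 32.9 to 39.9 against 42.3 to 47.9 RPKM, and its part was not tested. In MCAO tissue the means of Eng were 7.56 (Cort+/+) and 7.46 RPKM (Cort-/-), and those of Acvrl1 were 3.42 and 3.51 RPKM. The differences in the response of these genes therefore draw on the same CL levels. For the difference in the response (Cort-/- minus Cort+/+, log2) the lowest p belonged to Eng (0.36 ± 0.13), Acvrl1 (0.40 ± 0.14) and Dcn (0.26 ± 0.15), none of them called (adjusted p = 1 for Eng and Acvrl1). All 6 endothelial markers were positive in the same comparison, with a median of 0.34 and 0 called (2 at an unadjusted p under 0.05), and their part was not tested. In MCAO tissue the lowest p belonged to the co-receptor gene Tgfbr3 (log2 difference 0.22 ± 0.07), Col1a1 (0.42 ± 0.18) and Fn1 (0.31 ± 0.14), all with an adjusted p of 1.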

How the data were processed

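RNA from 14 mouse brain hemispheres was sequenced by the authors as stranded, paired-end mRNA libraries. According to their methods and labels the reads were processed with reanalyzerGSE on GRCm39, with GENCODE annotation, without pooling replicates. The values deposited by the authors are RPKM. The gene lengths and library sizes behind them are not given in the sources used here, and whole reads were recovered by a search for both (100% of 495656 values above 0 came out whole, within 0.001 reads). Total reads per library bound the precision of low genes: members had at least 39 reads in every library.

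Genes above 0 in at least 2 libraries were fitted on log2(RPKM + 0.1) with limma 3.58.1 in R 4.3.3, as 1 model of 4 groups with a variance trend, so a fold change of a low gene is understated. The study's own test on counts was not used, since the deposited unit is RPKM, and limma voom on recovered reads served as an alternative. Calls have a Benjamini-Hochberg adjusted p under 0.05 over all tested genes. Shares were compared with exact two-sided permutation tests. The scripts were tested on simulated data. No pair of replicates agreed within counting noise (chi-square per degree of freedom at least 5.29), so each library counted once. Gene positions are from GENCODE M39 and promoter windows from RefSeq, with 250 bases before and 50 after the gene start.

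The members and gene lists were chosen with earlier results of these data known. Named from the pathway list are genes called in a comparison, or the 3 of lowest p where fewer than 3 were called. Counts of reads carry counting error only, and p-values measure the spread between these libraries. Alternatives were 9 other settings and leaving out each library in turn. Replicate numbers were used to pair the hemispheres in the block alternative alone. Protein sequences are not analysed here, and 1 gene of the pathway list is not reported here.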

Additional observations from a re-analysis of the deposited data

How the results depend on the processing

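Each group held 3 to 5 libraries, and recovered reads per library ran down to 39 for Lrg1 and 111 for Tgfbi. A mean of at least 0.5 RPKM left 17476 genes, 1290 of them called in Cort-/- mice (main fit 792 of 46102). It gave 4 called members there, adding Tgfbr1 (limma adjusted p = 0.04996) and Tgfbi (0.0348) to Tgfb1 and Tgfbr2. A model restricted to both Cort-/- groups, with fewer libraries behind the spread, gave 0 (adjusted p of Tgfb1 0.0688 and of Tgfbr2 0.0599). Voom on recovered reads added Tgfbi there (adjusted p = 0.0452). The averaged calls of Tgfb1, Tgfbr1, Tgfbr2 and Tgfbi held with these filters and with voom, a pseudocount of 1, no filter, quantile normalization, median ratio scaling and library weights. Leaving out 1 library in turn gave 0 to 1 called members in Cort+/+ mice (1 without Cort+/+ MCAO replicate 4), 0 to 4 in Cort-/- mice (0 without CL replicate 1 or 3, 1 without MCAO replicate 1) and 2 to 4 in the average (2 without CL replicate 3 of either genotype or Cort+/+ MCAO replicate 2 or 3). It gave 0 in the other comparisons.

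Libraries of different hemispheres shared replicate numbers, and whether same-numbered libraries came from 1 brain is not given in the sources used here. Their deviations from the group means correlated from -0.239 to 0.316 over 5 same-numbered pairs. With 3 to 5 libraries per group these values cannot decide the pairing. With the replicate block, 0 members were called in Cort-/- mice and 0 in the average (limma adjusted p from 0.130 to 0.152 for the 4 genes), where the averaged log2 changes of Tgfb1 and Tgfbr2 were 1.17 and 0.69. Over all genes limma then called 0 in both, with 4565 and 5855 at an unadjusted p under 0.05 in Cort-/- mice and in the average. The block leaves few libraries to estimate the spread, so the loss of calls cannot decide whether they depend on pairing. Of the 60 log2 differences of members over the 6 comparisons, 9 changed sign under the block, none of them called. They were Inhba in Cort+/+ mice (-0.275) and in the average (-0.0486), Lrg1 in Cort-/- mice (-0.0257), Tgfbr1 (-0.0248) and Smad7 (-0.0144) between genotypes in MCAO, and the differences between the genotypes' responses of Tgfb1 (-0.0254), Tgfbr2 (-0.0329), Smad3 (-0.0865) and Tgfbi (-0.45). In the block fit, libraries without a same-numbered partner in the other hemisphere of their genotype do not enter the comparisons of hemispheres. Those comparisons and the differences between responses thus rest on fewer libraries. The part this had in the changes of sign was not tested.

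Of the same 60, 26 changed sign without some 1 library and 5 under another setting, none of them called. Among those that changed sign without 1 library, the widest ranges were those of Lrg1. They ran from -0.158 to 0.978 in Cort+/+ mice and from -0.720 to 0.416 for the difference between responses. Tgfbi had wider ranges without a change of sign. These ran from 0.683 to 1.85 in Cort+/+ mice, from 0.263 to 1.43 between genotypes in MCAO and from 0.0804 to 1.25 for the difference between responses. Tgfbi between genotypes in CL ran from -0.0813 to 0.490, and Inhba from -0.217 to 0.272 in Cort+/+ mice and from -0.0468 to 0.198 in the average. Smad3 in the average ran from -0.0439 to 0.00995 and Tgfbr1 between genotypes in MCAO from -0.0991 to 0.0930. Genes called in Cort+/+ mice numbered 5, against 57 with voom, 28 with the mean filter, 25 with both Cort+/+ groups alone, 13 with quantile normalization, 9 with library weights, 2 with a pseudocount of 1 and 3 to 160 without 1 library. In Cort-/- mice they numbered 792, against 86 with both groups alone, 1294 with voom and 133 to 1191 without 1 library. In the average they numbered 1579, against 941 to 1913 without 1 library.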
